A study of Mus musculus with 12 samples.

Results

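The genes described here are 8 nuclear receptors of the mouse liver, out of 52636 annotated genes counted in each library. They are the xenobiotic receptors Nr1i2 and Nr1i3, the lipid receptors Ppara, Ppard, Nr1h3 and Rora, and the steroid receptors Esr1 and Nr3c1. They were chosen by name, with earlier results of these data known, to be read against the diet difference in the cytochrome P450 genes. All 8 had a mean count of at least 12 per library and were tested. The lowest raw count of any of them was 114, for Ppard in 1 mouse.

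Liver RNA came from the left lateral lobe of male C57Bl/6J offspring at 16 weeks of age, with 1 RNA-seq library per mouse. VDD-F1 mice (n = 6) were born to dams that ate a vitamin D deficient diet for 5 weeks before mating and through pregnancy, with calcium gluconate added. VDS-F1 mice (n = 6) were born to dams on the matched vitamin D sufficient diet. In both groups the dams ate the sufficient diet from delivery and the offspring ate it from weaning, so all 12 mice were on 1 diet when sampled. No genotype beyond the strain and no drug is given for either group. The diets were given to the dams, and the sources used here do not say which mice were littermates. The tests treat each mouse as independent, so p-values may be too small if mice shared a dam.

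Nuclear receptors are transcription factors whose activity is set by small fat-soluble ligands such as drugs, bile acids, fatty acids, oxysterols and steroid hormones. Nr1i2 encodes PXR and Nr1i3 encodes CAR, which pair with RXR and are known for inducing P450 genes of the Cyp2b, Cyp2c and Cyp3a families. Ppara and Ppard encode receptors of fatty acids, Nr1h3 the oxysterol receptor LXR alpha, Rora a receptor that activates clock genes, Esr1 the estrogen receptor alpha and Nr3c1 the glucocorticoid receptor. An RNA level says nothing of ligand, of binding to DNA or of where in the cell the protein is, and CAR in particular is held in the cytoplasm until it is activated.

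Each library held between 14275793 and 20815066 fragments counted on genes, and every one of the 10 hepatocyte markers was detected, with a summed level of 98566 to 115649 CPM (counts per 1000000, scaled by TMM) per mouse in VDD-F1 and 85744 to 106168 in VDS-F1. Fragments outside annotated genes made up 11.1% of the library of VDS6 and 2.52% to 4.94% of the other 11. VDD2 had the highest summed markers of stellate cells (834 CPM), macrophages (434 CPM), cholangiocytes (117 CPM) and lymphocytes and dendritic cells (17.9 CPM) of all 12 mice. At an unadjusted p under 0.05 (edgeR), 4 of 6 cholangiocyte markers were higher in VDD-F1 and 0 lower, where 9.55% of all genes were higher and 6.29% lower. Of 10 stellate markers 3 were higher and 1 lower, and of 10 endothelial and of 10 macrophage markers 1 was higher and 2 lower. Of 3 lymphocyte and dendritic markers tested 1 was higher. None of the markers had an adjusted p under 0.05. Of 6 marker sums compared, those of hepatocytes (exact permutation p = 0.0238) and of lymphocytes and dendritic cells (2.26 to 17.9 CPM in VDD-F1 against 0.839 to 3.43, exact permutation p = 0.0368) had the smallest p, both toward VDD-F1 and both with a Benjamini-Hochberg adjusted p of 0.11 over the 6. The lymphocyte and dendritic sum rests on only 3 of the 10 listed markers, those that passed the count filter. By gene, the hepatocyte markers did not rise as a set. Of 10, 6 had a positive and 4 a negative log2-fold change, with a median of 0.013. At an unadjusted p under 0.05 (edgeR) 0 were higher and 1 lower. The part of these cells in the values that follow was not tested. In whole liver, fewer cells of a type and less RNA per cell cannot be told apart. The study records a liver weight for 7 mice, VDD4 to VDD6 together with VDS3 to VDS6, here called the recorded mice, and none for VDD1 to VDD3, VDS1 and VDS2, the 5 unrecorded mice. Differences are also given within these sets, in which the diets also differed in clock gene levels, as given below for the sets.

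None of the 8 receptors was called between the diets at an adjusted p under 0.05 (edgeR, quasi-likelihood, adjusted by Benjamini-Hochberg), where 0.0402% of 12453 genes were. At an unadjusted p under 0.05, 1 of 8 receptors passed, Nr1i3, lower in VDD-F1, while 15.8% of all genes passed. DESeq2 called 0 of 8 (4.05% of all genes), the newer edgeR form 0 of 8 (0.161%), and voom with sample quality weights 1 of 8, again Nr1i3 (4.74%). The ranges of the 2 diets overlapped for all 8 receptors, and 1.18% of all genes had ranges that did not. Of the receptors, 4 had a higher and 4 a lower fitted level in VDD-F1, with a median log2-fold change of 0.0060 against 0.0041 over all genes.

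**Figure D1:**
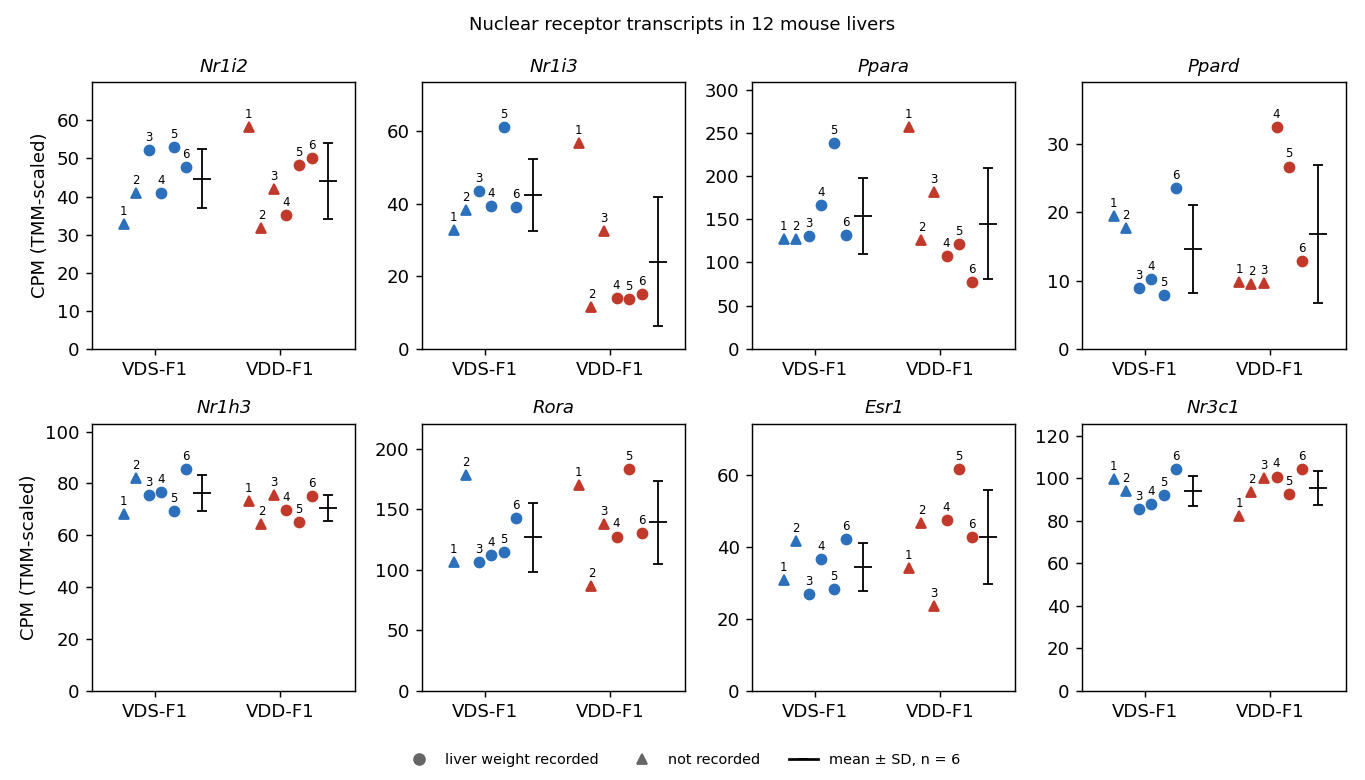
Level of each receptor (y axis, CPM scaled by TMM) in the 6 VDS-F1 (blue) and 6 VDD-F1 (red) livers, numbered by mouse, with the mean and SD of each diet. Circles are recorded and triangles unrecorded mice (liver weight). For Nr1i3, VDD2, VDD4, VDD5 and VDD6 sit between 11.6 and 15.2 CPM, and VDD3 at 32.6, all below the VDS-F1 mice, while VDD1 sits among the highest of them. Nr1h3 and Nr3c1 spread little in either diet.

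The levels of the receptors relative to each other were compared per length, as TPM (from the count divided by the length of all exons and scaled to 1000000 per library). Ppara had the highest median over the 12 mice, 65.9 TPM, followed by Nr1h3 with 56.6, Nr1i2 with 31.0, Nr3c1 with 24.5, Rora with 18.2, Nr1i3 with 13.9, Esr1 with 5.40 and Ppard with 3.45 TPM. Between every pair of neighbours in this order the ranges over mice overlapped. Within single mice, Nr1h3 was above Nr1i2 in 12 of 12, Ppara above Nr1h3 and Nr1i2 above Nr3c1 in 11 of 12, and each of the other 4 neighbours kept its order in 9 of 12 (with the longest coding transcript, described next, Ppara was above Nr1h3 in 7 of 12). Ppara, at 45.4 to 135 TPM, did not overlap Nr3c1, Rora, Nr1i3, Esr1 or Ppard, of which the highest value in any mouse was 30.4 TPM (Nr3c1). With the length of the longest coding transcript, an alternative chosen after seeing the data, Nr1i3 (18.4 TPM) and Rora (18.3 TPM) changed places, and the medians of Esr1 and Ppard were 9.75 and 6.57 TPM.

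Nr1i3, the gene of CAR (ENSMUSG00000005677.14, GRCm38 chr1:171213970-171220701, plus strand), had the largest fitted difference of the 8. In VDD-F1 it ranged from 11.6 to 56.7 CPM with a median of 14.6, and in VDS-F1 from 32.8 to 61.3 CPM with a median of 39.3. Levels of 11.6 CPM in VDD2, 14.0 in VDD4, 13.8 in VDD5 and 15.2 in VDD6 lay below every VDS-F1 mouse, while VDD3 (32.6 CPM) was just under the lowest VDS-F1 mouse and VDD1 (56.7 CPM) was above all but VDS5. The means were 24.0 ± 17.8 and 42.4 ± 9.87 CPM (SD, n = 6 each). The log2-fold change was -0.83 (SE, the standard error, 0.35, 95% interval -1.58 to -0.08), a fitted level 1.77-fold lower in VDD-F1, with an unadjusted p of 0.0332 and an adjusted p of 0.273 (edgeR).

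The call of Nr1i3 depended on the mice and on the test. Without VDD1 the log2-fold change was -1.29 with an adjusted p of 0.0175 by the same edgeR test, a fit in which 3.37% of all genes were called. With all 12 mice, voom with sample quality weights gave -1.29 and an adjusted p of 0.0183. It gave VDD2 the lowest weight, 0.390, and VDD1 a weight of 0.631. Within the recorded mice, where the 3 VDD-F1 mice lay between 13.8 and 15.2 CPM and the 4 VDS-F1 mice between 39.1 and 61.3, the log2-fold change was -1.68 (SE 0.16, adjusted p = 7.61e-05, edgeR), in a fit that called 11% of all genes. Within the unrecorded mice it was -0.08 (SE 0.55, adjusted p = 0.999). The difference between these effects had an unadjusted p of 0.0157 and an adjusted p of 0.409 (edgeR interaction term), so it did not pass the adjustment. The exons of Nr1i3 share 3304 bases with Tomm40l on the opposite strand, and only reads of the strand of Nr1i3 were counted.

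The bases upstream of Nr1i3 and of the P450 gene Cyp3a11, a known PXR target, were read from RefSeq (GRCm38.p6) to show which receptor half-sites stand before each gene. Capitals mark every match to AGGTCA, the half-site read by most RXR partners, AGTTCA, a half-site common in PXR and CAR elements, AGAACA, a glucocorticoid receptor half-site, and the E-box CACGTG, on either strand. Each run is the 250 bases before the start of the gene, at chr1:171213720-171213969 on the plus strand for Nr1i3 and chr5:145879855-145880104 on the minus strand for Cyp3a11.
Nr1i3: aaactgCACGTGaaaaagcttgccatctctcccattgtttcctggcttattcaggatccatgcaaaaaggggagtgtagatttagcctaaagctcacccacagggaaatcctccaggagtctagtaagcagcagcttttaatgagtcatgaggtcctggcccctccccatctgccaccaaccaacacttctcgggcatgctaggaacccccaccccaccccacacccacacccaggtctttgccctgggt
Cyp3a11: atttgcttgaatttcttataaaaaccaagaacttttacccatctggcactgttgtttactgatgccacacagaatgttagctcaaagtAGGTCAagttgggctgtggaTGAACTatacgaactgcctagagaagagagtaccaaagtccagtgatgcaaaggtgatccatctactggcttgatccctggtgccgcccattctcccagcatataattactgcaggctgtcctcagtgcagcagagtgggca
In Cyp3a11 an AGGTCA began 162 bases and a TGAACT, which reads as AGTTCA on the other strand, 142 bases before the start, and in Nr1i3 a CACGTG, looked for after the sequence had been read, began 244 bases before it. None of the 3 half-sites was found in the windows of the 7 receptors that had one. Over all 32851 windows of this length, 14.0% held AGGTCA, 11.8% AGTTCA, 16.1% AGAACA and 6.02% CACGTG. Of 50 windows of 45 P450 genes, 18.0% held AGGTCA, 18.0% AGTTCA, 22.0% AGAACA and 4.0% CACGTG. A match is a stretch of letters and not a measured site.

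Of 38 listed target genes of CAR and PXR, 30 were tested. Cyp1a2 fell (adjusted p under 0.05), and at an unadjusted p under 0.05, 8 were lower and 3 higher in VDD-F1, where 6.29% of all genes were lower and 9.55% higher. The median log2-fold change of the list was -0.14 (-0.15 in the recorded and 0.12 in the unrecorded mice), and DESeq2 called 6 lower and 0 higher, where it called 155 of 12453 genes lower and 349 higher. In the recorded mice edgeR called 10 of the list lower and 6 higher, against 638 and 728 of all genes. Cyp1a2, which oxidizes caffeine and aromatic amines, had a log2-fold change of -1.35 (SE 0.20, adjusted p = 0.0269, edgeR with Benjamini-Hochberg adjustment), and the adjusted p ranged from 0.00868 to 0.128 when 1 mouse at a time was left out, lying above 0.05 without any of VDD4 to VDD6 or VDS3 to VDS6. Cyp2c37, an epoxygenase of fatty acids, had -2.08 (adjusted p = 0.0812), and Ugt1a1, which conjugates bilirubin, had -0.72 (adjusted p = 0.0855, same test). Both were called lower by DESeq2 (adjusted p = 0.00274 and 0.00194) and by voom (0.00259 and 0.00921). In the recorded mice edgeR called both (1.79e-07 and 0.00049), and in the unrecorded mice neither (0.999 each). Cyp2c genes are close in sequence and may share reads, which was not measured.

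Mouse by mouse, Cyp2c37 had its lowest levels in the same 4 mice as Nr1i3. It was 8.72 CPM in VDD2, 27.9 in VDD4, 21.7 in VDD5 and 23.0 in VDD6, against 68.2 in VDD1, 75.5 in VDD3 and 74.9 to 222 CPM in VDS-F1. Its diet ranges touched only at VDD3 and VDS2. VDD1 had the highest Nr1i3 of its diet, yet Cyp2c37 there was below every VDS-F1 mouse, and so was Cyp1a2, at 307 CPM against 462 to 861 in VDS-F1.

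Other classic targets were ordered differently across the mice. Cyp2b10, the P450 gene most used as a sign of CAR activity, was highest in VDD4, VDD5 and VDD6, at 5.70, 4.94 and 4.43 CPM, 3 of the 4 mice with the least Nr1i3. Its levels were 0.0753 to 1.77 CPM in VDD1 to VDD3 and 0 to 3.30 in VDS-F1, from at most 95 raw counts in any mouse, and its log2-fold change was 1.38 (SE 0.88, adjusted p = 0.475, edgeR). Cyp2c55 was also highest in these 3 mice, at 19.1 to 24.9 CPM, against 1.65 to 12.2 CPM in the other 9 mice, and had a log2-fold change of 0.82 (adjusted p = 0.553). Within the recorded mice both were called higher in VDD-F1, Cyp2b10 by 1.59 (adjusted p = 0.0238) and Cyp2c55 by 1.15 (adjusted p = 0.00117, edgeR). Cyp2c55 also divided the mice by set, at 7.78 CPM or more in every recorded mouse and 6.37 or less in every unrecorded one.

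Cyp3a11, the main drug-oxidizing P450 gene of the Cyp3a family and a target of PXR, split the mice by set rather than by diet. It was 5671 to 6324 CPM in VDD4 to VDD6 and 3788 to 5983 in VDS3 to VDS6, and 594 to 1953 in VDD1 to VDD3 and 758 to 926 in VDS1 and VDS2. Every recorded mouse was above every unrecorded one. The diet difference was 0.09 (SE 0.58, adjusted p = 0.962, edgeR) over the 12 mice, of which 3 of 6 VDD-F1 and 4 of 6 VDS-F1 were recorded. It was 0.33 within the recorded (adjusted p = 0.134) and 0.72 within the unrecorded mice (adjusted p = 0.999, edgeR). What the sets of mice share was not tested.

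Nr1i2, the gene of PXR (ENSMUSG00000022809.4, chr16:38248323-38294824, minus strand), did not show that split. It ranged from 31.6 to 58.3 CPM (median 45.1) in VDD-F1 and from 32.9 to 53.0 (median 44.4) in VDS-F1, and the groups overlapped along nearly their whole length. In recorded mice it was 35.0 to 53.0 CPM and in the others 31.6 to 58.3. The means were 44.2 ± 9.98 and 44.6 ± 7.76 CPM (SD, n = 6 each), with a log2-fold change of -0.013 (SE 0.15, 95% interval -0.34 to 0.32, adjusted p = 0.983, edgeR). Within the sets it was -0.12 and 0.25.

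**Figure D2:**
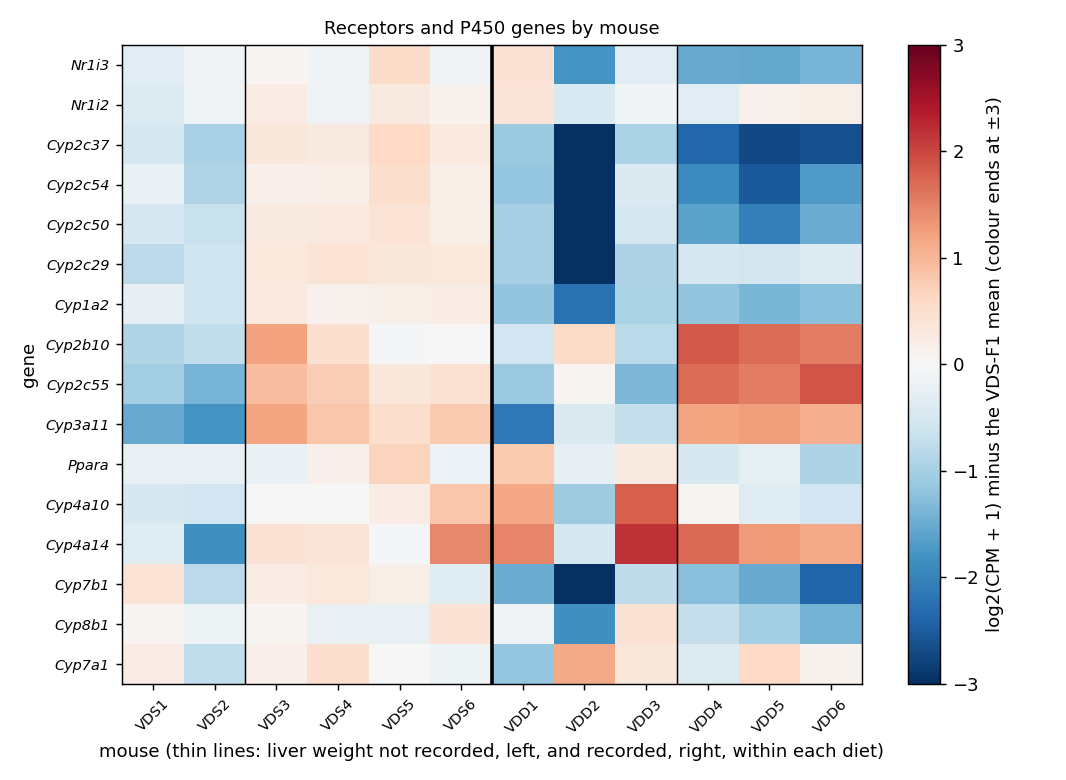
Nr1i3, Nr1i2, Ppara and 13 P450 genes (rows) in each of the 12 livers (columns). Colour gives log2(CPM + 1) minus the mean of the VDS-F1 mice, ending at 3 in each direction, the thick line separates the diets, and thin lines separate unrecorded (left) from recorded (right) mice. Cyp1a2 is lower in all VDD-F1 mice than in any VDS-F1 mouse. The same holds for Cyp2c37, Cyp2c54 and Cyp2c50 except in VDD3, which lies above VDS2. These genes are lowest in VDD2, while Cyp2b10, Cyp2c55 and Cyp3a11 are high in VDD4 to VDD6. Cyp2c50 and Cyp2c29 were chosen after their values were seen.

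Of 99 P450 genes in the annotation, 59 were tested, and 1 of them, Cyp1a2, was called at an adjusted p under 0.05 by edgeR. DESeq2 called 6 lower and 2 higher (155 and 349 of all 12453 genes), voom 8 lower and 0 higher (236 and 354), and the newer edgeR form 2 in all (20). Within the recorded mice edgeR called 17 lower and 7 higher (638 and 728). At an unadjusted p under 0.05, 14 were lower in VDD-F1 (6.29% of all genes were) and 6 higher (9.55% of all genes were), and the median log2-fold change of all 59 was -0.11. The 3 lowest below that threshold were Cyp2c37, Cyp7b1 (-1.68, adjusted p = 0.0918) and Cyp2c54 (-1.67, adjusted p = 0.10). The 3 highest were Cyp2a4 (7.18, adjusted p = 0.0627), Cyp1b1 (2.49, adjusted p = 0.0958) and Cyp4f16 (1.34, adjusted p = 0.195, all edgeR with Benjamini-Hochberg adjustment). In the recorded mice edgeR called Cyp2c37 (adjusted p = 1.79e-07), Cyp7b1 (0.000889), Cyp2c54 (1.37e-05), Cyp2a4 (4.16e-07), Cyp1b1 (0.00233) and Cyp4f16 (0.00333). Over the 12 mice DESeq2 called Cyp2c37 (adjusted p = 0.00274), Cyp7b1 (0.0144), Cyp2c54 (0.0271), Cyp2a4 (0.000338) and Cyp1b1 (0.00405). Cyp2a4 and Cyp1b1, the 2 that DESeq2 called higher, averaged 0.138 and 0.620 CPM in VDS-F1. They passed the count filter through the VDD-F1 mice in which they were high, so their place among the higher genes is not independent of that filter. Cyp2a4 was at 0.416 CPM or less in every VDS-F1 mouse, VDD1 and VDD3, so its fold change depends on how counts near 0 are treated, and it may share reads with other Cyp2a genes. Cyp1b1 was at 3.84 to 6.52 CPM in VDD2, VDD4, VDD5 and VDD6, the 4 mice with the least Nr1i3, and at 1.04 CPM or less in every other mouse.

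The summed level of the 59 P450 genes was 10725 to 20696 CPM in VDD-F1 and 15987 to 26730 in VDS-F1. VDD2 (10725 CPM) and VDD1 (14835) were below every VDS-F1 mouse, VDS3 to VDS6 were above every VDD-F1 mouse, and the groups overlapped. The means were 17392 ± 3884 and 22864 ± 4343 CPM (SD, n = 6 each), or 1.74% and 2.29% of counts, a difference of -5472 CPM (exact permutation test over 924 splits, two-sided, p = 0.0411, where the smallest possible p is 0.00216). Without VDD2 the difference was -4139 CPM (exact permutation p = 0.0823), and p was also above 0.05 without VDD1, VDD5, VDD6 or any of VDS3 to VDS6. Within the recorded mice it was -6207 CPM (exact permutation p = 0.0571, smallest possible 0.0286) and within the unrecorded mice -2030 CPM (exact permutation p = 0.80, smallest possible 0.1).

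**Figure D3:**
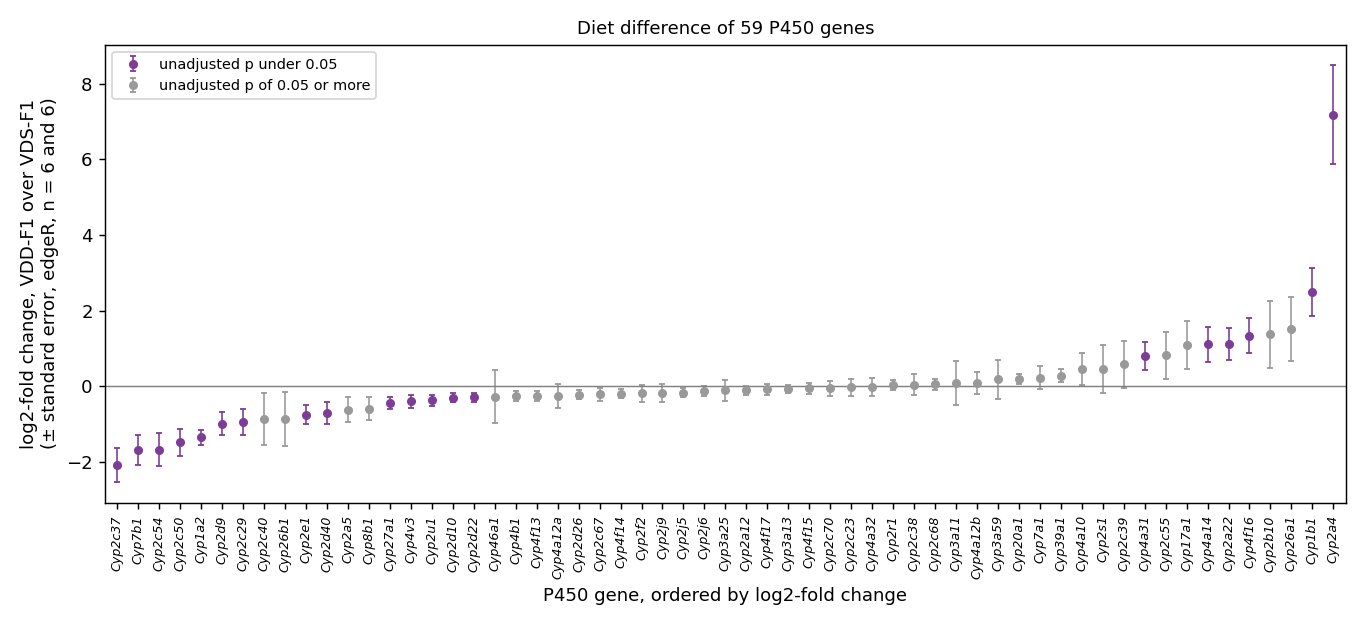
Log2-fold change of each of the 59 tested P450 genes (y axis, VDD-F1 over VDS-F1 from edgeR, n = 6 each), in order of size, with bars of 1 standard error. Purple points are the 14 lower and 6 higher genes with an unadjusted p under 0.05, from Cyp2c37 at -2.08 to Cyp2a4 at 7.18.

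Ppara, the receptor that drives fatty acid oxidation in the liver (ENSMUSG00000022383.13, chr15:85734983-85802819, plus strand), ranged from 77.8 to 257 CPM (median 123) in VDD-F1 and from 127 to 238 (median 131) in VDS-F1. VDD1 (257 CPM) and VDS5 (238 CPM) were the highest, the same 2 mice as for Nr1i3, and VDD6 the lowest, and the groups overlapped. The means were 145 ± 64.4 and 153 ± 44.1 CPM (SD, n = 6 each), with a log2-fold change of -0.083 (SE 0.25, 95% interval -0.62 to 0.46, adjusted p = 0.913, edgeR).

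Within the sets of mice the difference in Ppara went in opposite directions. Among recorded mice, VDD-F1 mice had 77.8 to 121 CPM and VDS-F1 mice 130 to 238, a log2-fold change of -0.71 (SE 0.21, adjusted p = 0.0495, edgeR). Among unrecorded mice, VDD-F1 mice had 125 to 257 CPM and VDS-F1 mice 127 each, a log2-fold change of 0.57 (SE 0.30, adjusted p = 0.999). The difference between the effects had an unadjusted p of 0.00685 and an adjusted p of 0.331 (edgeR interaction term).

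All 29 listed targets of the PPARs were tested. At an unadjusted p under 0.05, 6 were higher and 0 lower in VDD-F1, where 9.55% of all genes were higher and 6.29% lower. The median log2-fold change was 0.075, and 0 were called by edgeR, 1 by DESeq2 and 0 by voom at an adjusted p under 0.05. Cd36, a fatty acid transporter, had a log2-fold change of 0.90 (adjusted p = 0.0947), Ehhadh, an enzyme of peroxisomal oxidation, 0.34 (adjusted p = 0.258) and Cyp4a14, a fatty acid hydroxylase, 1.11 (adjusted p = 0.261, all edgeR with Benjamini-Hochberg adjustment). The median of the list was -0.21 in the recorded and 0.58 in the unrecorded mice, the same signs as Ppara itself. In the recorded mice edgeR called 7 of the 29 lower and 0 higher at an adjusted p under 0.05, where 638 of 12453 genes were called lower and 728 higher. Cyp4a10, often used as a sign of PPAR alpha activity, was highest in VDD3 (694 CPM) and VDD1 (443 CPM) and lowest in VDD2 (95.4 CPM), with log2-fold changes of -0.58 in the recorded and 1.58 in the unrecorded mice (edgeR adjusted p = 0.0986 and 0.999).

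Ppard, the widely expressed fatty acid receptor (ENSMUSG00000002250.15, chr17:28232700-28301474, plus strand), ranged from 9.50 to 32.5 CPM (median 11.3) in VDD-F1 and from 7.92 to 23.5 (median 14.0) in VDS-F1. In VDD-F1 it was high in VDD4 (32.5 CPM) and VDD5 (26.7 CPM), 12.9 in VDD6 and 9.50 to 9.78 in VDD1 to VDD3. In VDS-F1 it was high in VDS6 (23.5 CPM), VDS1 (19.4) and VDS2 (17.7) and 7.92 to 10.2 in VDS3 to VDS5. Each diet thus held both high and low mice, and the ranges overlapped. The log2-fold change was 0.20 (SE 0.37, 95% interval -0.58 to 0.98, adjusted p = 0.835, edgeR).

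Within the sets Ppard differed in opposite directions, by 0.93 (SE 0.37, adjusted p = 0.141) in the recorded and -0.94 (SE 0.17, unadjusted p = 0.000867, adjusted p = 0.863, edgeR) in the unrecorded mice. The interaction had an unadjusted p of 0.00473 and an adjusted p of 0.294 (edgeR).

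The mice that were high for Ppard were also high for Npas2 and low for Nr1d1. Npas2, which activates the same elements as Clock, was 12.7 CPM in VDD4, 9.83 in VDD5, 12.3 in VDS1, 7.08 in VDS2 and 18.6 in VDS6, and 0.903 to 4.62 CPM in the other 7 mice. Nr1d1, a repressor of the clock activators, stood the other way round, at 49.8 to 58.1 CPM in VDD4 to VDD6, VDS1, VDS2 and VDS6 and 132 to 227 CPM in the other 6 mice. Its log2-fold change was -1.67 in the recorded and 1.47 in the unrecorded mice, with an interaction adjusted p of 0.0573 (edgeR). Arntl, at 21.4 to 37.3 CPM in those 6 mice and 3.97 to 17.9 in the others, and Dbp, at 1.42 to 6.67 CPM in those 6 and 12.9 or more in the others, divided the mice as Nr1d1 did. Nr1d2, at 20.5 to 44.3 CPM in those 6 mice and 40.8 to 81.6 in the others, overlapped. Per1 and Clock did not divide the mice so either. Per1 was 5.01 CPM in VDD4, the lowest of all mice, and 45.5 in VDD5, and Clock was 52.0 to 96.3 CPM with VDD4 (71.5) and VDS2 (63.7) below VDS3 (86.5). The part of the clock genes in the Ppard values was not tested, and the hour at which each mouse was sampled is not given in the sources used here. Npas2, Nr1d2, Dbp and Clock were chosen after their values were seen.

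**Figure D4:**
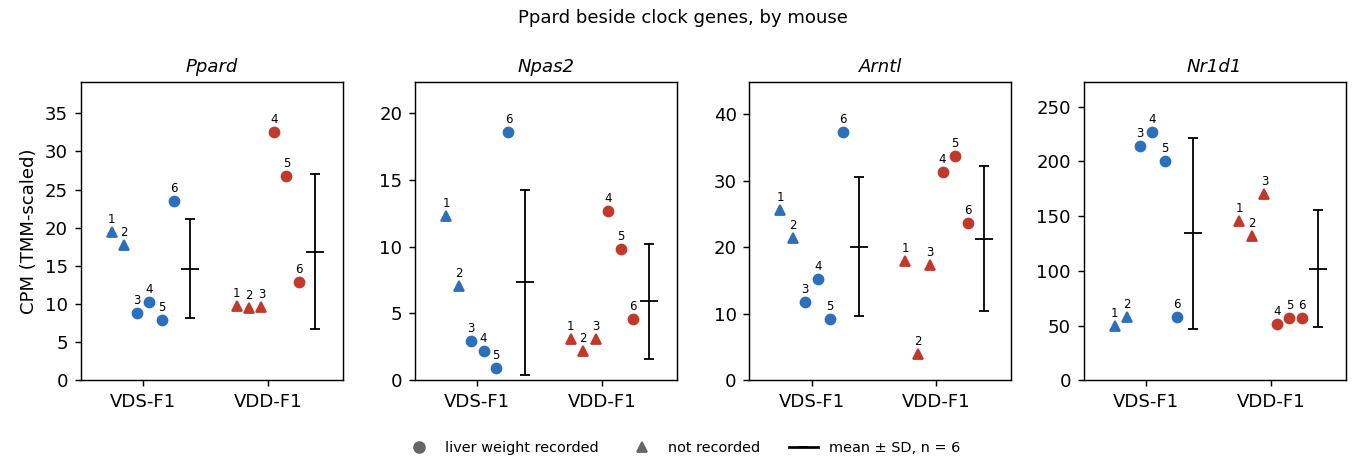
Levels (y axis, CPM scaled by TMM) of Ppard and of the clock genes Npas2, Arntl and Nr1d1 in the 6 VDS-F1 (blue) and 6 VDD-F1 (red) livers, numbered by mouse, with mean and SD per diet. VDD4, VDD5, VDS1, VDS2 and VDS6 are high for Ppard and Npas2, and these mice and VDD6 are at 49.8 to 58.1 CPM for Nr1d1.

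Nr1h3, the oxysterol receptor LXR alpha that governs cholesterol export and lipogenesis (ENSMUSG00000002108.10, chr2:91184061-91202834, minus strand), varied little. It ranged from 64.3 to 75.5 CPM (median 71.4) in VDD-F1 and from 68.2 to 85.7 (median 76.1) in VDS-F1, and VDS2, VDS4 and VDS6 were above every VDD-F1 mouse. The means were 70.5 ± 4.90 and 76.2 ± 6.89 CPM (SD, n = 6 each). The log2-fold change was -0.11 (SE 0.08, 95% interval -0.28 to 0.06, adjusted p = 0.512, edgeR), and it was -0.13 and -0.08 within the sets. Its exons share 34 bases with the gene Gm13783.

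All 13 listed LXR targets were tested, and 2 were higher and 0 lower in VDD-F1 at an unadjusted p under 0.05, a share of 15.4% near the 15.8% of all genes, with a median log2-fold change of 0.21. They are Abcg5 and Abcg8, the partner subunits of the transporter that moves sterols into bile. Abcg5 was 52.3 to 133 CPM in VDD-F1 and 33.5 to 66.7 in VDS-F1, with a log2-fold change of 0.93 (SE 0.24, adjusted p = 0.0969), and Abcg8 was 82.9 to 153 and 57.4 to 95.8 CPM, with 0.71 (SE 0.19, adjusted p = 0.10, both edgeR with Benjamini-Hochberg adjustment). Both were highest in VDD2. edgeR called 0 of the list at an adjusted p under 0.05, and DESeq2 and voom called these 2. Among the recorded mice edgeR called 2 of the list higher and 1 lower, where 728 and 638 of 12453 genes were called. Srebf1, the lipogenic target, had -0.21 (adjusted p = 0.749), Mylip, which marks the LDL receptor for breakdown, -0.27 (adjusted p = 0.329) and Cyp7a1, which begins bile acid synthesis, 0.23 (adjusted p = 0.769).

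Rora (ENSMUSG00000032238.17, chr9:68653786-69388246, plus strand) ranged from 86.6 to 184 CPM (median 134) in VDD-F1 and from 106 to 178 (median 114) in VDS-F1. VDD2 was the lowest and VDD5 the highest mouse of all, and VDS2 stood above the other VDS-F1 mice. The means were 139 ± 34.4 and 127 ± 28.5 CPM (SD, n = 6 each), with a log2-fold change of 0.14 (SE 0.17, 95% interval -0.24 to 0.51, adjusted p = 0.750, edgeR), and 0.31 and -0.11 within the sets.

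Of 13 listed ROR targets and clock genes, all tested, 0 were higher and 2 lower at an unadjusted p under 0.05, a share of 15.4% near the 15.8% of all genes, with a median log2-fold change of -0.28 (-0.013 in the recorded and -0.86 in the unrecorded mice). edgeR called 0 at an adjusted p under 0.05, and DESeq2 and voom called 1 each, lower. Among the recorded mice edgeR called 3 lower and 0 higher, where 638 and 728 of 12453 genes were called, namely Cyp7b1 (-1.77, adjusted p = 0.000889), Cyp8b1 (-1.07, adjusted p = 0.00408) and Nr1d1 (-1.67, adjusted p = 0.0106). Cyp7b1, an oxysterol hydroxylase that Rora is known to activate, was 13.3 to 148 CPM in VDD-F1 and 144 to 332 in VDS-F1, with only VDD3 above the lowest VDS-F1 mouse (log2-fold change -1.68, SE 0.41, adjusted p = 0.0918, edgeR). Avpr1a, the vasopressin receptor, had -0.71 (adjusted p = 0.234), Cyp8b1, the sterol 12-hydroxylase gene, -0.59 (adjusted p = 0.374) and Arntl, the partner of Clock, 0.084 (adjusted p = 0.951).

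Esr1, the estrogen receptor alpha (ENSMUSG00000019768.16, chr10:4611593-5005614, plus strand), ranged from 23.6 to 61.6 CPM (median 44.7) in VDD-F1 and from 26.9 to 42.0 (median 33.7) in VDS-F1. VDD2 and VDD4 to VDD6 were above every VDS-F1 mouse, at 42.8 to 61.6 CPM, and VDD3 was below them all. These are the 4 mice that were lowest for Nr1i3. The means were 42.7 ± 12.9 and 34.4 ± 6.67 CPM (SD, n = 6 each), with a log2-fold change of 0.31 (SE 0.19, 95% interval -0.10 to 0.73, adjusted p = 0.450, edgeR). In the recorded mice it was 0.60 (SE 0.17, adjusted p = 0.0432), in the others -0.05 (SE 0.30, adjusted p = 0.999), and the interaction had an adjusted p of 0.633 (edgeR). Of 3 listed estrogen targets, 1 was tested, Nr0b2, with -0.24 (adjusted p = 0.731).

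Nr3c1, the glucocorticoid receptor (ENSMUSG00000024431.14, chr18:39410545-39519421, minus strand), had the narrowest interval of the 8 beside Nr1h3. It ranged from 82.2 to 104 CPM (median 96.7) in VDD-F1 and from 85.4 to 104 (median 93.2) in VDS-F1, with overlap along nearly the whole range. The means were 95.5 ± 8.03 and 93.9 ± 7.0 CPM (SD, n = 6 each), with a log2-fold change of 0.025 (SE 0.08, 95% interval -0.14 to 0.19, adjusted p = 0.915, edgeR).

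All 17 listed glucocorticoid targets were tested, and 5 were higher and 1 lower at an unadjusted p under 0.05, where 9.55% of all genes were higher and 6.29% lower, with a median log2-fold change of 0.021. edgeR called 0 at an adjusted p under 0.05, DESeq2 2 and voom 1, all higher. Among the recorded mice edgeR called 6 higher and 0 lower, where 728 of 12453 genes were called higher and 638 lower, and the median was 0.40 there and -0.22 in the unrecorded mice. Cdkn1a, an inhibitor of the cell cycle, had 1.49 (adjusted p = 0.0855), and the metallothioneins Mt1 and Mt2, which bind zinc and answer to metals as well as to glucocorticoids, had 1.88 and 2.45 (adjusted p = 0.118 and 0.133, edgeR). Without VDD2 these were 1.08 and 1.48. Mt1 was 157 CPM in VDD2 and 53.5 in VDD1, against 20.4 to 24.9 in the other VDD-F1 mice and 5.84 to 27.9 in VDS-F1. Among the targets most used as signs of receptor activity, Fkbp5 had 0.0073 (adjusted p = 0.996, with -0.98 in the recorded and 1.13 in the unrecorded mice and an interaction adjusted p of 0.335, edgeR), Per1 -0.38 (adjusted p = 0.670) and Tsc22d3 -0.67 (adjusted p = 0.280). Of 8 chaperones that fold the steroid receptors, all tested, 0 were higher and 2 lower at an unadjusted p under 0.05 (6.29% of all genes were lower), Hspa8 (-0.43, adjusted p = 0.246) and Fkbp4 (-0.29, adjusted p = 0.301). Stip1 had -0.25 (adjusted p = 0.397), the median of the chaperones was -0.18, and no tool called any.

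Of 21 RXR and co-regulator genes, all tested, 0 were higher and 1 lower at an unadjusted p under 0.05, 4.76% against 15.8% of all genes, 17 had a negative log2-fold change, and the median was -0.088. Over the 12 mice edgeR, DESeq2 and voom called 0 of them at an adjusted p under 0.05, and in the recorded mice edgeR called 1, Rxra, lower (-0.39, adjusted p = 0.0226). The co-activator Med1 had -0.21 (adjusted p = 0.266), Rxra, the obligate partner of PXR, CAR, the PPARs and LXR, -0.20 (adjusted p = 0.320) and the co-repressor Ncor1 -0.21 (adjusted p = 0.331, all edgeR). Of 41 other nuclear receptors 31 were tested, and 1 was higher and 2 lower at an unadjusted p under 0.05, 9.68% against 15.8% of all genes, with a median of -0.072. Over the 12 mice edgeR and DESeq2 called 0 of these and voom 1, and in the recorded mice edgeR called 2 higher and 6 lower, where 11% of all genes were called. Pparg, the adipogenic fatty acid receptor, was 9.79 to 16.5 CPM in VDD-F1 and 4.05 to 11.7 in VDS-F1 (0.59, adjusted p = 0.22), Hnf4a, a master regulator of hepatocytes, had -0.29 (adjusted p = 0.301) and Thrb, the main thyroid hormone receptor of the liver, -0.29 (adjusted p = 0.302).

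The sets of mice gave different calls for the 8 receptors. Within each set the diets also differed in Nr1d1. It was 51.1 to 57.2 CPM in VDD-F1 and 58.1 to 227 in VDS-F1 for recorded mice, with VDS6 the lowest of these VDS-F1 mice. For unrecorded mice it was 132 to 170 CPM in VDD-F1 and 49.8 to 57.7 in VDS-F1. Diet and the clock gene levels can thus hardly be told apart within a set, and their part in these calls was not tested. Within the recorded mice 3 of 8 receptors were called at an adjusted p under 0.05, Nr1i3 and Ppara lower and Esr1 higher, where 11% of all genes were called and 25.5% had an unadjusted p under 0.05. Within the unrecorded mice 0 of 8 and 0.0% of all genes were called by edgeR, with 1 of 8 (Ppard) and 3.79% at an unadjusted p under 0.05. For the interaction of diet and set, 3 of 8 receptors (Nr1i3, Ppara and Ppard) had an unadjusted p under 0.05, where 9.01% of all genes did, and 0 had an adjusted p under 0.05, where 0.0883% did.

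**Figure D5:**
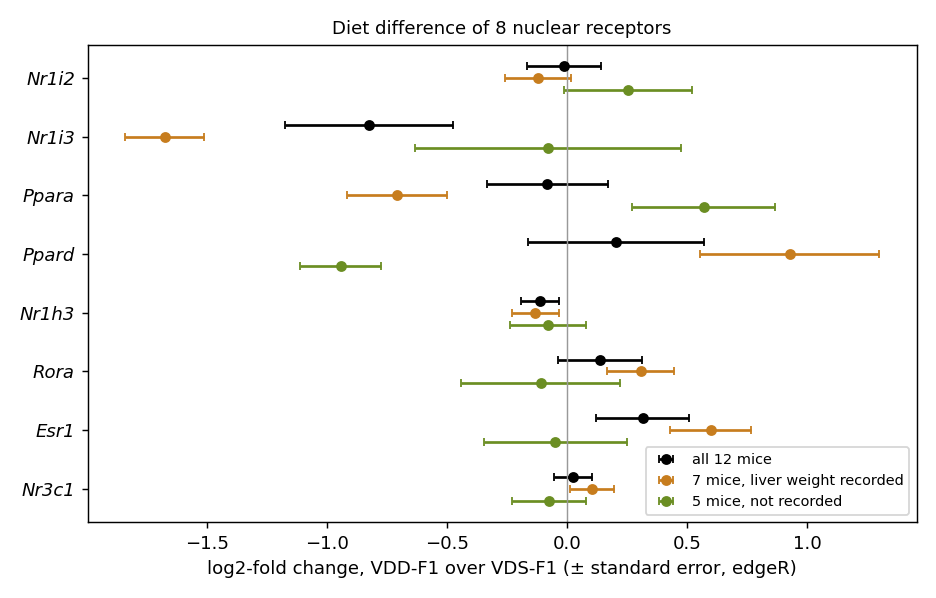
Log2-fold change of each receptor (x axis, VDD-F1 over VDS-F1 from edgeR, bars of 1 standard error) over all 12 mice (black), the 7 recorded (orange) and the 5 unrecorded (green) mice. Nr1i3 is at -0.83, -1.68 and -0.08 in these fits, and Ppara and Ppard lie on opposite sides of 0 in the sets.

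After subtracting the mean of each diet, the genes whose log2 CPM followed each receptor most closely over the 12 mice were listed as a description, since all share the same libraries and depth. For Nr1i3 they were Tmem189, Abcc6 and Gucd1 (Pearson r = 0.95, 0.94 and 0.94), and for Nr1i2 Kansl1, Zfp335 and N4bp2l1 (r = 0.94, 0.93 and 0.92). For Ppara they were E2f8, Aqp9 and Plpp3 (r = 0.92, 0.92 and 0.91), for Ppard Grk5, Dtx4 and Npas2 (r = 0.94, 0.94 and 0.92), for Nr1h3 Hdgfl2, Mcu and Mrap (r = 0.91, 0.89 and 0.89) and for Rora Stard13, Epc2 and Irf2bp2 (r = 0.93, 0.92 and 0.90). For Esr1 they were Rinl, Sike1 and Phactr2 (r = 0.94, 0.94 and 0.91) and for Nr3c1 Kdelc1, Rnf139 and Rnf138 (r = 0.92, 0.87 and 0.85). Among the receptors themselves, Nr1i3 and Ppara followed each other most closely (r = 0.84), and Nr1i3 and Esr1 ran opposite (r = -0.66).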

How the data were processed

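Liver RNA-seq of 6 VDD-F1 and 6 VDS-F1 mice was used, 1 library per mouse, with groups from the labels. The authors trimmed the reads, aligned them to mm10 with STAR (named in the submitters' processing notes, version not given in the sources used here) and deposited raw counts per gene of GENCODE M15. The reverse-strand counts were used, which made up 92.7% to 95.8% of all stranded counts. Gene symbols came from GENCODE M21 on GRCm38, which matched 52403 of 52636 genes. Upstream sequences came from RefSeq (GRCm38.p6). Rows that name no gene were left out.

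Genes averaging 12 counts or more were compared between the diets with edgeR 4.0.16 (TMM, quasi-likelihood test in the legacy form) and Benjamini-Hochberg adjustment over 12453 genes, where the study's methods name DESeq2. Sums per mouse were compared with exact permutation tests in SciPy 1.17.1. The fits were also run on simulated counts with known changes. The simulation gave every gene the same dispersion and held no sets of mice, so it does not show how the calls behave in these data. Alternatives were DESeq2 1.42.0, the newer edgeR form, voom with sample quality weights (limma 3.58.1), other normalizations and filters, the count without strand, the set of mice as a covariate or alone, each mouse left out, and a replicate block. Replicate numbers mark different mice and do not pair them. Log2 CPM used a prior count of 2.

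The gene lists, like the receptors, were chosen with earlier results of these data known. Genes named are the receptors, in each list those called and otherwise the 3 with the smallest p, the 3 highest and 3 lowest P450 genes at an unadjusted p under 0.05, 17 canonical targets, and the 3 genes most like each receptor by r. Npas2 and others so marked were chosen after their values were seen.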

Additional observations from a re-analysis of the deposited data

Results flagged for a closer look

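For Nr1i3 and for Ppara, VDS5 stood apart from the other VDS-F1 mice by Dixon's test at the 95% level. Nr1i3 was at 61.3 CPM in VDS5 and 32.8 to 43.4 CPM in the other 5 VDS-F1 mice, a gap of 0.626 of the whole range. Ppara was at 238 CPM in VDS5 and 127 to 166 CPM in the others, a gap of 0.642 of the range. Both values are the highest of the diet. The test was run on 16 groups, 8 receptors in each diet, and chance marks about 1 in 20.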

How the results depend on the processing

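Over 12 mice Nr1i3 was lower in VDD-F1 under every alternative run, and it was called by voom with sample quality weights (-1.29), in the 7 recorded mice (-1.68) and without VDD1. The differences of Nr1i2, Ppara, Ppard and Nr3c1 are near 0 beside their errors, and their sign moved. Nr1i2 was 0.0088 with upper quartile normalization, 0.027 with library size alone, 0.029 with the set of mice as a covariate and 0.25 in the 5 unrecorded mice. In the recorded mice Ppara (-0.71) and Esr1 (0.60) were called, Cyp4a10 was -0.58, Srebf1 0.16 and Fkbp5 -0.98. In the unrecorded mice Ppara was 0.57, Ppard -0.94, Rora -0.11, Esr1 -0.050, Nr3c1 -0.075, Hnf4a 0.071, Rxra 0.056, Nr0b2 0.39, Fkbp5 1.13, Arntl -0.86 and Nr1d1 1.47. Cyp7a1 was -0.029 and Fkbp5 -0.41 with voom, and Fkbp5 was -0.0037 with a total count of 12, -0.0044 with no filter and -0.14 with the set as a covariate. The cause was not tested.

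When 1 mouse at a time was left out, the log2-fold change ranged from -0.11 to 0.066 for Nr1i2, -1.29 to -0.68 for Nr1i3, -0.33 to 0.085 for Ppara, -0.090 to 0.39 for Ppard, -0.0024 to 0.065 for Nr3c1, -0.14 to 0.32 for Cyp3a11, -0.026 to 0.66 for Cyp4a10, -0.034 to 0.40 for Cyp7a1, -0.35 to 0.38 for Fkbp5, -0.10 to 0.35 for Arntl, 0.038 to 0.26 for Rora, 0.18 to 0.44 for Esr1, 1.08 to 2.23 for Mt1 and 1.48 to 3.06 for Mt2. The log2-fold change of Avpr1a ranged from -0.84 to -0.35, of Srebf1 from -0.37 to -0.0076, of Nr0b2 from -0.42 to -0.028 and of Per1 from -0.60 to -0.12. List medians ranged from -0.022 to 0.13 for PPAR, -0.12 to 0.23 for glucocorticoid, 0.034 to 0.33 for LXR and -0.25 to -0.063 for CAR and PXR targets. The number of genes called ranged from 0 to 420, of receptors called from 0 to 1, of P450 genes higher from 3 to 7, and the P450 sum difference from -6847 to -4139 CPM.

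The 5 genes called became 504 with DESeq2, 20 with the newer edgeR form, 590 with voom, 85 with no filter, 28 with the set as a covariate, 1366 in the recorded mice and 0 in the unrecorded mice. The 0 receptors called became 1 with voom and 3 in the recorded mice. P450 genes at an unadjusted p under 0.05 became 24 lower and 12 higher in the recorded mice (25.5% of all genes passed there) and 4 lower and 4 higher in the unrecorded mice (3.79%). The P450 sum difference was -5040 CPM with library size alone (exact permutation p = 0.0563), -6207 in the recorded mice and -2030 in the unrecorded mice. List medians moved to -0.16 and 0.020 for RXR and co-regulators and -0.21 and 0.58 for PPAR targets (recorded and unrecorded mice), to 0.0069 for LXR and 0.40 for glucocorticoid targets in the recorded mice, and to -0.86 for ROR targets, 0.39 for the estrogen target, -0.22 for glucocorticoid targets and 0.12 for CAR and PXR targets in the unrecorded mice.

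Same-numbered mice did not deviate together (r from -0.076 to 0.10, 0 of 6 closest to their own number). With the replicate number as a block, Nr1i3 was -1.07 (edgeR adjusted p = 0.209), Fkbp5 was -0.062, 0 receptors and 19 genes were called. Low counts limit Cyp2b10 and Cyp1b1, and reads shared among Cyp2c or Cyp2a genes were not measured.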

Other observations

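Of 3 other Cyp3a genes among the 59 P450 genes, chosen after their values were seen, 2 divided the mice by the set they belong to. Cyp3a59, a close relative of Cyp3a11, was at 28.7 to 34.3 CPM in VDD4 to VDD6 and 21.3 to 27.6 in VDS3 to VDS6, against 4.10 to 10.7 in the other 5 mice. Cyp3a25 was at 293 to 404 CPM in the first 7 and 155 to 244 in the other 5, while Cyp3a13 was at 114 to 140 CPM in 11 mice and 180 in VDS1. None of these 3 had a diet difference at an adjusted p under 0.05 (edgeR adjusted p = 0.906 for Cyp3a59, 0.889 for Cyp3a25 and 0.831 for Cyp3a13).

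Cyp2e1 and Cyp2d9, also chosen after their values were seen, were lowest in 4 VDD-F1 mice. Cyp2e1, which oxidizes ethanol and ketones, was at 2098 to 2527 CPM in VDD2, VDD4, VDD5 and VDD6 and at 4220 to 6542 in the other 8 mice, with a log2-fold change of -0.75 (edgeR adjusted p = 0.174). Cyp2d9 was at 231 to 516 CPM in those 4 mice and at 761 to 1419 in the others, with -0.99 (edgeR adjusted p = 0.144).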
